A study of Mus musculus with 48 samples.

Results

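The 4 genes Bmp7, Col12a1, Greb1 and Atp11a were chosen by their translational efficiency (TE) in livers with mutant β-catenin, as genes with a higher value in B or BM mice than in controls, out of 16269 genes with a counted footprint transcript. TE is the level of ribosome-protected fragments (RPFs), or footprints, which are stretches of mRNA that a ribosome covered while translating, relative to the level of that mRNA in the cytoplasm. RPFs and cytoplasmic RNA had been sequenced from the same livers of 4 genotypes, which all received AAV8.TBG.Cre, a virus that expresses Cre recombinase from a hepatocyte promoter. WT mice carried neither conditional allele, Ctnnb1ex3/WT (B) mice carried a β-catenin allele that loses exon 3 and is thereby stabilised, R26LSL-MYC (M) mice carried a MYC transgene behind a stop cassette, and Ctnnb1ex3/WT;R26LSL-MYC (BM) mice carried both. Livers of male mice on a mixed C57BL/6 background, 2 to 4 months old, were taken 4 or 10 days after the virus, with 3 mice per genotype and day, so 24 mice gave 48 libraries. Each sample was an aliquot of ground liver tissue from 1 mouse, in which cells other than hepatocytes keep the unrecombined alleles.

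The members belong to separate pathways. Bmp7 is a bone morphogenetic protein (BMP), a secreted ligand that binds paired type 1 and type 2 receptors, after which SMAD1, SMAD5 and SMAD9 are phosphorylated and join SMAD4. In the liver, this pathway is best known for switching on Hamp, the gene of the iron hormone hepcidin. Col12a1 encodes collagen XII, a FACIT collagen that sits on the surface of collagen I fibrils, usually made by mesenchymal cells. Greb1 was named as an oestrogen-induced gene and encodes a cofactor of steroid receptors. Atp11a encodes a P4-ATPase, a flippase that moves phosphatidylserine to the inner leaflet of the plasma membrane with a TMEM30 subunit.

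On GRCm39, Bmp7 (ENSMUSG00000008999) lies at chr2:172709805-172782410 on the minus strand, and its counted transcript has 7 exons and a coding sequence of 1293 bases. Col12a1 (ENSMUSG00000032332) lies at chr9:79506268-79626135 on the minus strand, with 65 exons and 9195 coding bases. Greb1 (ENSMUSG00000036523) lies at chr12:16720616-16851015 on the minus strand, with 33 exons and 5781 coding bases. Atp11a (ENSMUSG00000031441) lies at chr8:12807003-12918729 on the plus strand, with 29 exons and 3564 coding bases. These exons, start codons and upstream windows were read from GENCODE vM39, whose versions of the transcripts differ in length from those counted. They are 3966 against 3670 bases for Bmp7, 10086 against 9953 for Col12a1, 7856 against 6346 for Greb1 and 7457 against 7443 for Atp11a. The median coding sequence of 16195 counted transcripts was 1281 bases, so Bmp7 was of middling length and the other 3 were long. RNA reads of Col12a1, Greb1 and Atp11a were divided over 2 isoforms each, with a median share of the counted one of 47.4%, 50.8% and 51.0%, and Bmp7 had 1 isoform. The start codons of the counted transcripts are shown because footprints were counted in the reading frame that begins there, with 12 bases before and 6 after the ATG, which is in capitals.
Bmp7: agagccggcgcgATGcacgtg
Col12a1: tgaggcccaaacATGcagacc
Greb1: tgtgctccggagATGggcaat
Atp11a: ggagcgataaccATGgactgc

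Bmp7 and Greb1 were the members whose footprints were higher in both β-catenin genotypes at day 10, so the 250 bases before the start of their counted transcripts are shown too, read from the GRCm39 genome with the GENCODE vM39 annotation.
Bmp7, chr2:172782411-172782660, minus strand: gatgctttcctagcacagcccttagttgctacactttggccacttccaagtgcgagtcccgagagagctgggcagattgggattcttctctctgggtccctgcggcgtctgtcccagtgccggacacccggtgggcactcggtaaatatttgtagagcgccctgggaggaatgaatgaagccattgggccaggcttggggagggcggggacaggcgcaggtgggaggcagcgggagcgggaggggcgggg
Greb1, chr12:16807243-16807492, minus strand: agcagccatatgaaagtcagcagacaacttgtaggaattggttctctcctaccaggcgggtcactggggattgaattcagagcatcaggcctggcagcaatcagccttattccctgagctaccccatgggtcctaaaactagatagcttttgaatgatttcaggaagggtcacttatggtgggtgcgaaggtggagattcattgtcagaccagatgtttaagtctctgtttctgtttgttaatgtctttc
The Greb1 window lies inside the gene, since its other isoform starts farther upstream. Neither window held the core CTTTGA of sites bound by TCF factors, the DNA-binding partners of β-catenin, or the E-box CACGTG bound by MYC and MAX, on either strand. Of 16249 such windows, 13.0% held the first and 6.87% the second, and the windows of Col12a1 and Atp11a held neither.

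All 4 genes overlap annotated genes on the other strand, with 289 shared exon bases for Bmp7, 896 for Col12a1, 736 for Greb1 and 522 for Atp11a. None of these antisense genes was in the RNA tables, and 55.6% of 16264 counted genes have such an overlap. The strand setting of the RNA counting was not given in the sources used here, so RNA of a member and of its antisense partner cannot be told apart.

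RPF libraries held 9742197 to 14380713 counts and RNA libraries 3254141 to 6540116. All 7 hepatocyte markers (such as Alb, albumin, and Cps1, the first urea cycle enzyme) were detected in every group. Their summed RPF level ranged from 71163 to 82201 CPM (counts scaled to the library size) in WT livers at day 4 and from 35071 to 41126 in BM livers at day 4. In bulk liver, fewer cells of a type and less RNA per cell cannot be told apart. Axin2, a feedback inhibitor induced by β-catenin, had a mean RPF level of 3.24 CPM in WT, 2.02 in M, 22.3 in B and 26.7 in BM livers at day 4, which follows the labels. Ctnnb1 counts over the whole gene do not check a loss of exon 3. Mean Myc RPF levels at day 4 were 11.2 CPM in WT, 60.4 in M, 22.3 in B and 53.4 in BM livers. BM mouse 1 of day 10 stood apart, and without it the number of mRNAs past the TE threshold in BM against WT at day 10 went from 27 to 2286. Values without this mouse are given beside the main changes of BM at day 10.

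Bmp7 footprints were scarce in livers without mutant β-catenin and several-fold more frequent with it, whereas Bmp7 RNA differed little from WT at day 4 and by far less than the footprints at day 10. In WT livers at day 4 the 3 mice had 11, 6 and 6 RPF counts, or 1.01, 0.727 and 0.677 CPM. In B livers they had 46, 81 and 97 counts (4.22, 7.54 and 8.28 CPM), and in BM livers 150, 128 and 121 counts (9.26, 8.41 and 8.03 CPM). M livers had 12, 18 and 22 counts (1.05, 1.38 and 2.00 CPM). Every B and BM mouse was therefore above every WT and M mouse at day 4.

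At day 10, Bmp7 RPF counts were 14, 4 and 13 in WT (1.23, 0.406 and 1.56 CPM) and 9, 14 and 14 in M livers (0.659, 1.03 and 1.08 CPM). They were 223, 186 and 145 in B (16.6, 13.7 and 9.99 CPM) and 204, 88 and 71 in BM livers (11.9, 6.81 and 5.85 CPM). B and BM again did not overlap WT or M, and BM mouse 1, with the highest BM value, was the mouse that stood apart. Bmp7 RNA counts lay between 120 and 294 in all 24 mice. Mean RNA levels at day 4 were 44.9 ± 15.4 CPM in WT, 35.2 ± 5.27 in M, 44.7 ± 3.89 in B and 44.5 ± 3.54 in BM (SD, n = 3). At day 10 they were 38.7 ± 8.60, 38.3 ± 2.81, 50.6 ± 2.50 and 55.4 ± 11.2 CPM in the same order. The log2 RNA change from WT was −0.01 ± 0.20 in B and 0.03 ± 0.20 in BM at day 4 (SE). At day 10 it was 0.40 ± 0.17 in B, where the groups did not overlap, and 0.51 ± 0.21 in BM (0.66 without BM mouse 1), beside RPF changes of 3.64 and 2.93 (2.56 without it).

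**Figure D1:**
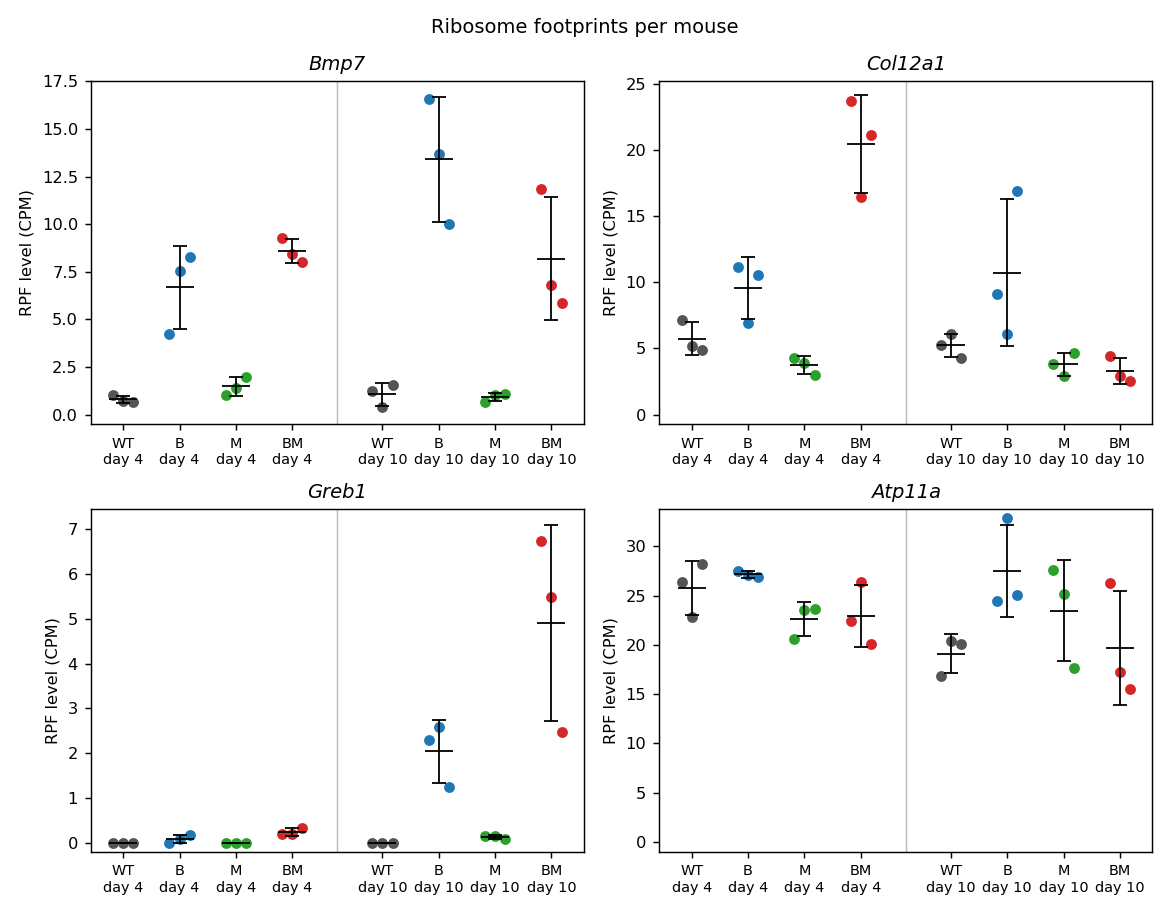
RPF level in CPM (vertical axis) of each mouse for the 4 genes, by genotype and day; points are mice, the horizontal bar is the group mean and the error bar is 1 SD (n = 3). Bmp7 points of B and BM lie above all WT and M points at both days, Greb1 rises mainly at day 10, Col12a1 peaks in BM at day 4, and Atp11a lies between 15.6 and 32.9 CPM throughout.

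Log2 TE of Bmp7, from counts with 0.5 added in each library, was −4.70, −6.15 and −6.14 in WT and −3.29, −2.51 and −2.56 in B livers at day 4. It was −4.89, −4.50 and −4.34 in M and −2.33, −2.26 and −2.53 in BM livers. M overlapped WT, and B and BM lay above both. The fitted TE change from WT at day 4 was 2.997 ± 0.47 log2 units (SE) in B, a 7.98-fold difference, and 3.37 ± 0.40 in BM, a 10.3-fold difference. These values chose the gene and are given as a description. In these fits of all mRNAs, 0.0488% of 10245 passed the threshold (adjusted p under 0.1) in B and 2.14% of 10512 in BM. At day 10 the TE change from WT was 3.23 ± 0.39 in B and 2.42 ± 0.50 in BM, the latter 1.90 without BM mouse 1, where 0.0471% of 10626 and 0.258% of 10469 mRNAs passed. These shares are 5 and 225 mRNAs at day 4 and 5 and 27 at day 10, and with the 2 libraries of each mouse paired by a replicate block they were 29 and 661, and 279 and 539. Adding β-catenin to MYC gave 2.17 ± 0.24 at day 4 and 2.65 ± 0.39 at day 10 (2.15 without BM mouse 1) in BM against M. BM and B overlapped at both days, with BM above B by 0.36 ± 0.23 at day 4. The BM against B difference at day 10 was −0.80 ± 0.36, and −1.30 without BM mouse 1, on the log2 TE scale.

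Per length of coding sequence and transcript, Bmp7 was among the least translated mRNAs of WT liver, at percentile 0.37 of TE over 10527 mRNAs at day 4 and percentile 0.35 at day 10. Its RNA level per kilobase stood at percentiles 62.9 and 59.2. In B livers its TE per length reached percentile 7.01 at day 4 and 14.5 at day 10, and in BM livers 10.0 and 6.60. Bmp7 mRNA therefore remained in the lower part of the TE range in every group.

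The 3 genes whose RPF pattern over the 24 mice was most like that of Bmp7 were Rhbg (an ammonia channel), Glul (glutamine synthetase) and Oat (ornithine aminotransferase), genes of the hepatocytes around the central vein. The root mean square differences of their centred log2 RPF levels from those of Bmp7 were 0.62, 0.64 and 0.69, against a median of 1.66 over 10551 genes. Their RNA went with their footprints. In BM against WT at day 4, the RPF and RNA changes on the log2 scale were 2.56 and 2.64 for Rhbg, 2.28 and 2.53 for Glul, and 1.80 and 1.88 for Oat, whereas those of Bmp7 were 3.40 and 0.03. In B against WT at day 10 they were 3.99 and 4.37 for Rhbg, 2.51 and 2.89 for Glul, and 3.22 and 3.67 for Oat, and 3.64 and 0.40 for Bmp7. By TE, the most similar genes were Pkp1 (plakophilin 1, a desmosome protein), Slc7a5 and Slc1a5 (amino acid transporters), with differences of 0.92, 1.06 and 1.15 against a median of 1.54.

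**Figure D2:**
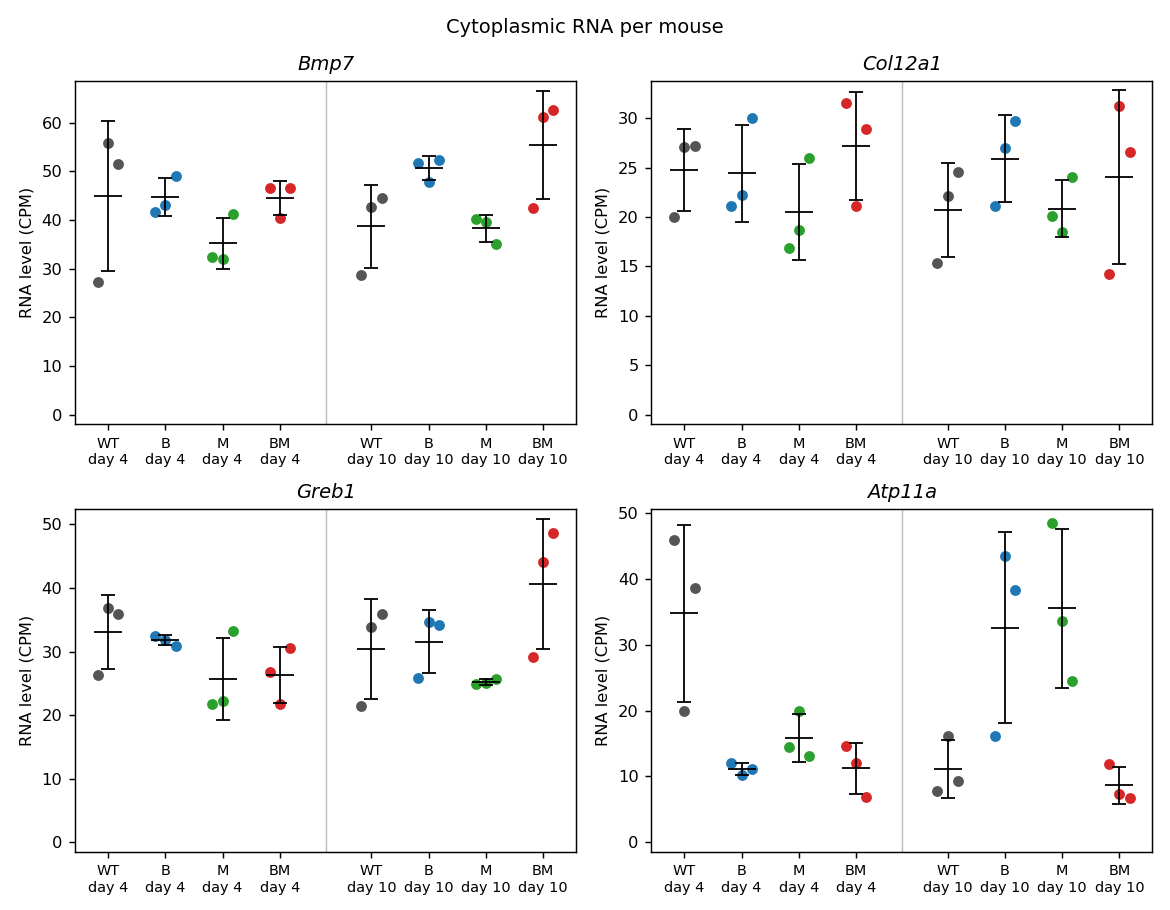
Cytoplasmic RNA level in CPM (vertical axis) of each mouse for the 4 genes, by genotype and day; points are mice, the bar is the mean and the error bar is 1 SD (n = 3). Groups of Bmp7, Col12a1 and Greb1 lie close together, whereas Atp11a means range from 8.63 CPM in BM at day 10 to 35.5 CPM in M at day 10.

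Greb1 mRNA was present in every liver and carried almost no footprints until day 10 of mutant β-catenin. RPF counts were 0 in all 6 WT mice and in the 3 M mice of day 4. At day 4 the B mice had 0, 1 and 2 counts and the BM mice 3, 3 and 5. At day 10 the M mice had 2, 2 and 1 counts. All of these lie at or near the floor of 3 counts, and only the BM mice of day 4 had counts in every library of the earlier day.

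At day 10 the B mice had 31, 35 and 18 Greb1 RPF counts (2.30, 2.57 and 1.24 CPM) and the BM mice 116, 71 and 30 (6.75, 5.50 and 2.47 CPM). None of the other 18 mice reached these values. Against WT, taken at the floor of 3 counts in each library, the mean RPF level was at least 6.60-fold higher in B and at least 15.9-fold higher in BM, or at least 12.9-fold without BM mouse 1. Greb1 RNA counts ranged from 102 to 195 over the 24 mice, and mean RNA levels at day 10 were 30.4 ± 7.83 CPM in WT, 25.2 ± 0.455 in M, 31.6 ± 4.91 in B and 40.6 ± 10.2 in BM (SD, n = 3). With these RNA levels, TE was at least 6.36-fold higher in B and at least 11.9-fold higher in BM than in WT, or at least 8.45-fold without BM mouse 1. That mouse held 116 of the BM counts, and the other BM mice were still above or within the range of B, with 71 and 30 counts.

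Log2 TE of Greb1 at day 10 was −3.47, −3.73 and −4.75 in B and −2.11, −3.0 and −4.28 in BM livers, which overlap. The M counts of 2, 2 and 1 were under the floor, and against that floor TE was at least 13.6-fold higher in BM than in M, or at least 9.69-fold without BM mouse 1. BM was above B by 0.95 ± 0.48 log2 units, and by 0.49 without BM mouse 1. These mice chose the gene, and the values are a description. The comparisons of M with WT and of day 10 with day 4 in WT or M could not be fitted for Greb1 TE, because its footprints did not pass the filter on low counts.

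Greb1 stayed at the bottom of the TE range, reaching percentile 0.22 per length in B and 0.94 in BM livers at day 10. Its RNA level per kilobase was at percentile 37.2 in WT at day 10. Of 2536 genes with at most 3 RPF counts in every library, 97.1% had a lower RNA level per kilobase than Greb1, and their median was 0.0283 against 3.80 CPM per kb. The genes with the most similar RPF pattern were Slc1a2 (a glutamate transporter), Ly6d (a surface antigen) and Atp6v0d2 (a proton pump subunit), with root mean square differences of 1.08, 1.09 and 1.13 against a median of 2.42. The RNA of Slc1a2 rose with its footprints in B at day 10, by 4.19 for RNA and 3.79 for RPFs on the log2 scale. By TE, Greb1 was most like Hsd17b6, Mup3 and Bmp7, with differences of 1.51, 1.61 and 1.66 against a median of 2.31. In mice with no Greb1 footprint, its log2 RPF and TE values were set by the count added before taking logs. Mean log2 TE of Greb1 in WT at day 10 was −9.19, and −7.20 with a pseudocount of 2. The differences for Greb1 therefore depend in part on that added count, and no shared pattern is concluded from them. Bmp7 was also chosen by its TE in B or BM livers, so its likeness is only a description.

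**Figure D3:**
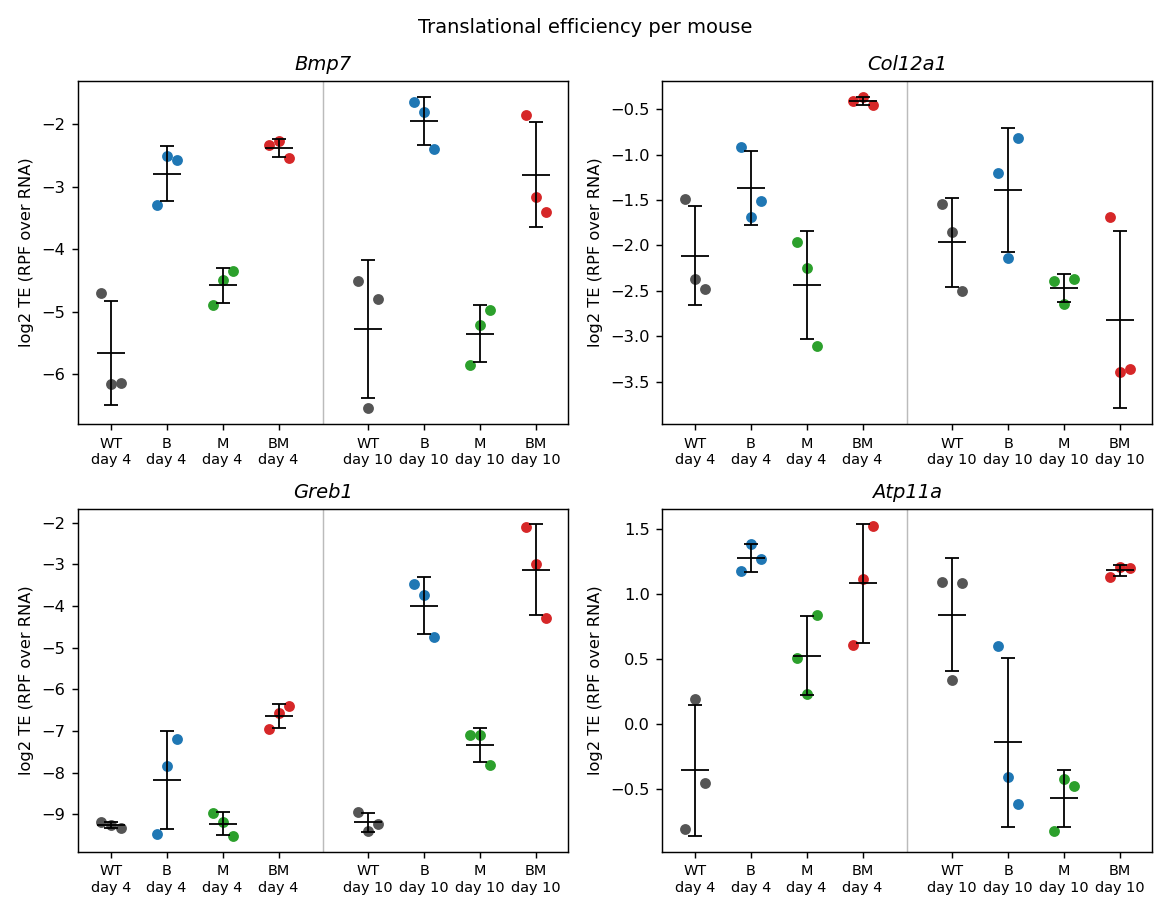
Log2 TE (RPF over RNA level, vertical axis) of each mouse for the 4 genes, by genotype and day; points are mice, the bar is the mean and the error bar is 1 SD (n = 3), and mice with no Greb1 footprint are drawn at the value that the added 0.5 count gives. TE is higher in B and BM at both days for Bmp7, at day 10 for Greb1 and in BM at day 4 for Col12a1, while Atp11a reverses its order in B between the days.

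Col12a1 footprints were most frequent in BM livers at day 4 and back at or below the WT level at day 10. At day 4 RPF levels were 7.13, 5.21 and 4.85 CPM in WT, 11.2, 6.89 and 10.6 in B, 4.30, 3.91 and 2.995 in M, and 23.7, 16.4 and 21.1 in BM livers. BM lay above all other groups, B overlapped WT by 1 mouse, and M lay below WT. At day 10 they were 5.26, 6.10 and 4.31 CPM in WT, 9.13, 6.10 and 16.9 in B, 3.81, 2.94 and 4.62 in M, and 4.42, 2.94 and 2.55 in BM livers. B then spread from the highest WT value upwards, and BM overlapped WT and M. Col12a1 RNA counts lay between 72 and 199, with group means from 20.5 to 27.2 CPM.

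The TE change of Col12a1 from WT was 0.72 ± 0.30 in B and 1.66 ± 0.27 in BM livers at day 4, and 0.68 ± 0.44 and −0.87 ± 0.42 at day 10 (log2 ± SE). Without B mouse 3 the day 10 value in B was 0.27, and leaving out each other mouse gave up to 0.99. BM was above M by 2.00 ± 0.28 and above B by 0.93 ± 0.28 at day 4. At day 10 the BM value differed from M by −0.33 ± 0.42 and from B by −1.53 ± 0.52. Within BM, TE differed between the days by −2.43 ± 0.40. Without BM mouse 1, the 4 values that rest on BM at day 10 were −1.42 (from WT), −0.85 (from M), −2.06 (from B) and −2.95 (from BM at day 4). Per length, Col12a1 moved from percentile 3.15 of TE in WT to 18.6 in BM at day 4, and stood at 1.24 in BM at day 10. Groups that did not overlap WT in TE were thus seen for BM at day 4, and B overlapped WT in TE at both days.

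Collagen XII is typical of mesenchymal cells, and the summed markers of such cells were not higher in BM than in WT livers at day 4. The summed RPF level of 10 stellate cell markers was 778 to 853 CPM in WT and 506 to 636 in BM livers at day 4, and 840 to 1006 in WT and 749 to 793 in BM at day 10. The 5 portal fibroblast markers summed to 18.3 to 29.2 CPM in WT and 15.4 to 22.5 in BM at day 4, and to 22.9 to 28.6 and 20.6 to 58.0 at day 10. No marker of either list was at 0 in the groups compared. The part of these cells in the Col12a1 values was not tested. The most similar RPF patterns were those of Mthfd2 (a mitochondrial folate enzyme), Tubb4b (a β-tubulin) and Ube2srt, with differences of 0.51, 0.54 and 0.54 against a median of 0.97. By TE they were Tuba1b (an α-tubulin), Wdr62 (a spindle protein) and Cd320, with 0.55, 0.56 and 0.59 against 0.91.

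Atp11a footprints differed little between groups, and its TE moved opposite to its RNA. RPF levels at day 4 were 26.3, 22.8 and 28.2 CPM in WT, 27.5, 27.1 and 26.9 in B, 20.6, 23.6 and 23.6 in M, and 22.4, 26.4 and 20.1 in BM livers. RNA levels of the same mice were 45.9, 19.9 and 38.6 CPM in WT, 12.1, 10.3 and 11.1 in B, 14.4, 20.0 and 13.1 in M, and 14.6, 12.1 and 6.92 in BM livers. B and BM RNA lay below all WT mice, and M overlapped WT by 1 mouse. The TE change from WT was 1.69 ± 0.30 in B and 1.43 ± 0.34 in BM. It came with RNA changes of −1.63 ± 0.26 and −1.57 ± 0.27, and RPF changes of 0.06 ± 0.10 and −0.14 ± 0.13 (log2 ± SE).

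At day 10 the order of the RNA levels was different. RNA was 7.78, 16.1 and 9.35 CPM in WT, 16.1, 43.5 and 38.3 in B, 48.5, 33.6 and 24.5 in M, and 11.9, 7.36 and 6.65 in BM livers. WT and BM were now low, and B and M were high apart from 1 B mouse that overlapped WT. RPF levels were 16.8, 20.4 and 20.1 CPM in WT, 24.5, 32.9 and 25.1 in B, 27.6, 25.2 and 17.7 in M, and 26.3, 17.3 and 15.6 in BM livers. B lay above all WT mice in RPFs, by 0.51 ± 0.15 log2 units. The TE change from WT was −1.06 ± 0.44 in B, which overlapped WT, and 0.38 ± 0.42 in BM (0.45 without BM mouse 1 and 0.086 without WT mouse 2), which did not, so in B at day 10 the values went against the description of a raised TE. BM was above M by 1.81 ± 0.43 and above B by 1.45 ± 0.49 log2 units (1.89 and 1.55 without BM mouse 1). The TE of Atp11a per length was at percentile 48.9 in WT and 94.4 in B at day 4, and at 88.5 and 56.9 at day 10.

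Comparisons with WT mice share their values with the choice of the genes, so those of M with WT and of the days in WT are given as a description, and the test is that of the days in M. Atp11a RNA differed from WT in M by −1.07 ± 0.24 at day 4, where 1 mouse overlapped, and by 1.70 ± 0.29 at day 10, where the groups did not overlap (log2 ± SE). Between the days it differed by −1.62 ± 0.30 in WT. In these fits, 23.7% of 11057, 15.3% of 11160 and 2.43% of 11015 RNAs passed the threshold. In M, Atp11a RNA was higher at day 10 than at day 4 in all mice (1.14 ± 0.23, edgeR adjusted p = 0.0672, with 0.81% of 11229 RNAs past the threshold). This call was lost without M mouse 1 or 3 of day 4 or M mouse 1 or 2 of day 10, with edgeR adjusted p of 0.408, 0.258, 0.201 and 0.136.

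Atp11a footprints differed from WT in M by −0.16 ± 0.11 at day 4 (33% of 11168 mRNAs called) and by 0.30 ± 0.18 at day 10 (19.2% of 11326), and between the days in WT by −0.44 ± 0.13 (4.61% of 10934). They did not pass between the days in M (0.06 ± 0.16, edgeR adjusted p = 0.921, 0.95% of 11370 called). The TE difference of M from WT was 0.91 ± 0.31 at day 4 (0.976% of 10351 mRNAs called) and −1.40 ± 0.38 at day 10 (0% of 10483), and that of the days in WT was 1.18 ± 0.37 (0.373% of 10199). Between the days in M, TE differed by −1.09 ± 0.33 and did not pass (edgeR adjusted p = 1.00, 0% of 10551 called). With the RPF and RNA library of each mouse joined by a mouse term, a replicate block, it passed at −1.09 ± 0.17 (edgeR adjusted p = 0.0435). At an unadjusted p under 0.05, 334 mRNAs differed in TE in M against WT at day 10 and 381 between the days in M, and DESeq2 called 3 and 2. With the replicate block, edgeR called 280 mRNAs in M against WT at day 4 instead of 101, 36 at day 10 instead of 0, 157 between the days in WT instead of 38, and 5 in M instead of 0.

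The most similar RNA patterns to that of Atp11a, looked up after its values had been seen, were those of Tmem176a, Tmem176b and Trim21, with root mean square differences of 0.61, 0.62 and 0.63 against a median of 0.95. Mean RNA of Tmem176b was 197 ± 30.2 CPM in WT, 124 ± 17.8 in M, 102 ± 6.31 in B and 94.5 ± 17.6 in BM livers at day 4. At day 10 it was 140 ± 15.1, 153 ± 14.9, 167 ± 17.6 and 100.4 ± 23.4 CPM in the same order (SD, n = 3). In B against WT at day 4, the log2 changes of Tmem176b were −0.90 for RPFs and −0.95 for RNA. For footprints, Atp11a was most like Clcn7, Lamtor1 and Tulp4, with differences of 0.19, 0.19 and 0.19 against a median of 0.44. By TE it was most like Nlk, Fance and Fbln5, with 0.55, 0.58 and 0.60 against 0.81.

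The TE difference of M from WT was 1.18 ± 0.54 for Bmp7 and −0.35 ± 0.30 for Col12a1 at day 4, and −0.21 ± 0.46 and −0.53 ± 0.30 at day 10. Footprints at day 4 differed by 0.87 ± 0.36 for Bmp7, with all 3 M mice above every WT mouse, and by −0.60 ± 0.22 for Col12a1, with M below WT. For Bmp7 the closest M and WT mice had 12 and 11 counts. Over all mRNAs, 33% of 11168 were called in this comparison. Between the days in M, a comparison without WT mice, TE did not pass for Bmp7 (−0.80 ± 0.32) or Col12a1 (−0.03 ± 0.30), with edgeR adjusted p = 1.00 for each. A p that misses the threshold does not show that these levels were equal.

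**Figure D4:**
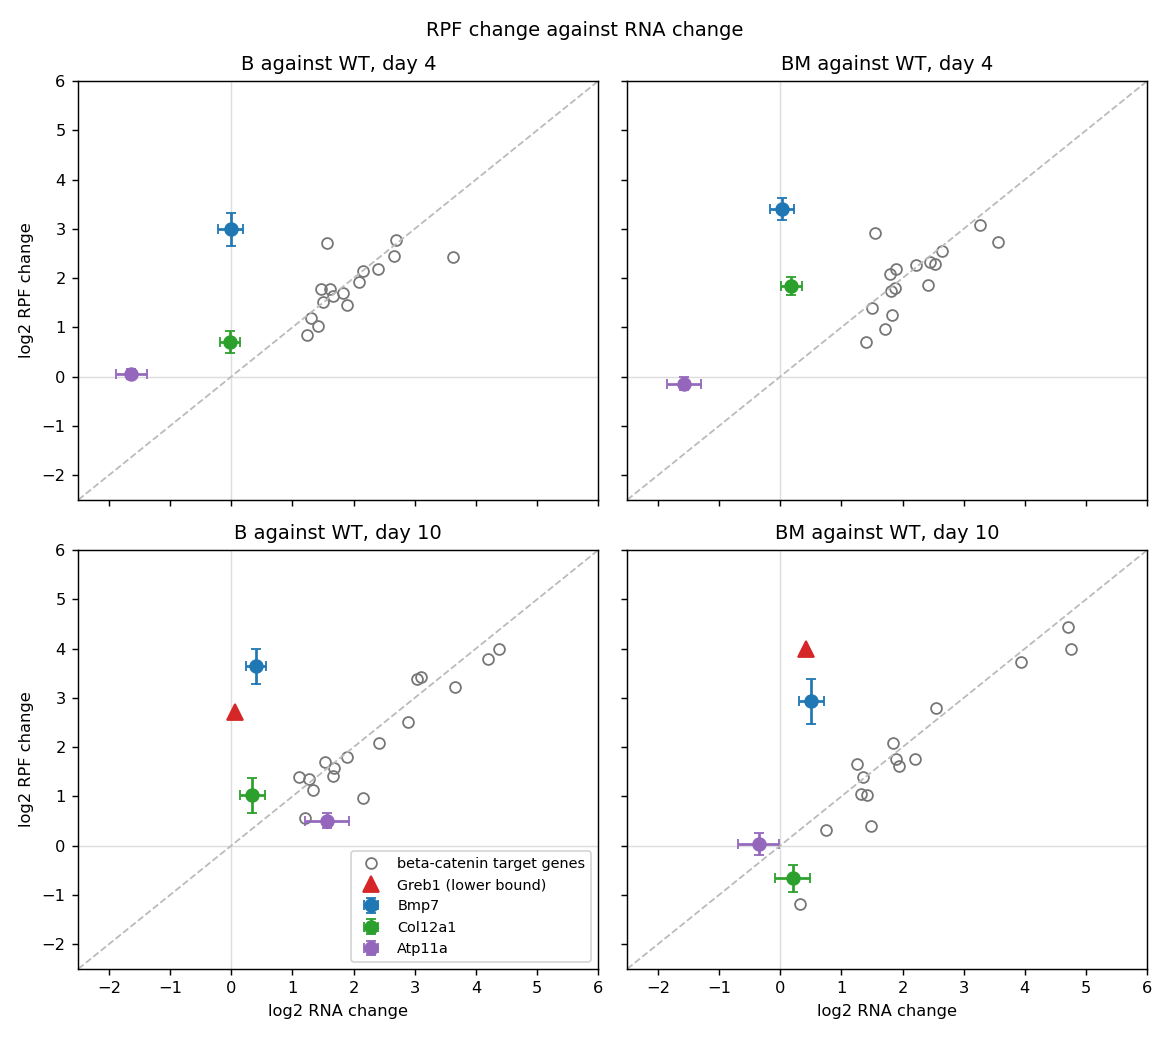
Log2 RPF change (vertical axis) against log2 RNA change (horizontal axis) from WT in B and BM livers at both days; filled circles are members with 1 SE in each direction, triangles are lower bounds for Greb1, open circles are β-catenin target genes, and the dashed line marks equal change. Target genes lie along the line, and Bmp7 lies above it in all 4 panels, near an RNA change of 0 at day 4 and at 0.40 in B and 0.51 in BM at day 10.

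Genes known as β-catenin targets in liver, a list that holds no member, mostly rose in footprints and in RNA. In RPFs, 15 of 16 tested rose in B and 16 of 16 in BM at day 4, and 15 and 11 of 16 rose at day 10. Without BM mouse 1, 10 rose and 2 fell in BM at day 10, beside 3776 that rose and 3843 that fell of 11526 mRNAs. In RNA, 16 of 16 rose in B and in BM at day 4, and 16 of 16 in B and 11 of 15 in BM at day 10. Over all RNAs, 2556 rose and 2555 fell of 11168 in BM at day 10, and the RNA shares of the other comparisons are not given here. Over all genes, 12.5% of 11076 mRNAs passed in RPFs in B and 50.8% of 11382 in BM at day 4, and 25.3% of 11476 and 46.7% of 11369 at day 10. Examples in BM at day 4 were Axin2 (3.07 ± 0.15), Nkd1, an inhibitor of the pathway (2.92 ± 0.29), the transcription factor Sp5 (2.73 ± 0.50) and Rhbg (2.56 ± 0.16), all log2 RPF changes. The median TE change of the list was −0.12 in B and −0.10 in BM at day 4 and −0.23 and −0.28 at day 10, beside −0.02, 0.00, 0.01 and 0.05 over all mRNAs. With all mice, 1 gene of the list passed the TE test in these 4 comparisons, Cyp1a2 in BM at day 4 (−0.75 ± 0.15, edgeR adjusted p = 0.0116). Without BM mouse 1, Cyp1a2 and Cyp2e1, detoxifying enzymes of hepatocytes, passed as lower in TE in BM at day 10. These were 2 of 15 tested, below the share of all mRNAs, where 1131 rose and 1155 fell of 10616. With the replicate block, 1 gene of the list rose and 4 fell in TE in BM at day 4, where 661 of 10512 mRNAs were called. At day 10 with the block none rose, and 2 fell in B, where 279 of 10626 mRNAs were called. In BM at day 10, 3 fell, where 539 of 10469 were called.

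No other BMP ligand rose in footprints in B or BM livers at either day. In BM at day 4, 50.8% of all mRNAs passed, and the shares of the BMP ligands, receptors and SMADs were near or below this. Of 6 tested ligands, 3 fell in RPFs in BM at day 4, namely Gdf2 (BMP9, −1.03 ± 0.16), Bmp4 (−0.83 ± 0.28) and Bmp10 (−0.54 ± 0.24), and none passed in B at that day. The same 3 fell in B at day 10 (−0.73 ± 0.14, −1.63 ± 0.42 and −1.36 ± 0.24), where 25.3% of all mRNAs were called. The stellate cell markers summed to 778 to 853 CPM of RPFs in WT and 506 to 636 in BM at day 4, and to 840 to 1006 in WT and 472 to 764 in B at day 10, and their part in the ligand values was not tested. Of 10 receptors and coreceptors, 1 rose and 2 fell in BM at day 4, with Acvrl1, a type 1 receptor of endothelium, at −0.79 ± 0.19, its coreceptor Eng at −0.45 ± 0.08 and the hemojuvelin partner Neo1 at 0.35 ± 0.10. Endothelial markers summed to 866 to 957 CPM of RPFs in WT and 684 to 738 in BM livers at day 4, with no marker at 0, and their part in these values was not tested. Of the 4 SMADs, Smad5 (0.72 ± 0.13) and Smad4 (0.30 ± 0.09) rose in BM at day 4 and none in B.

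Of 11 inhibitors tested, 1 rose and 6 fell in BM at day 4, beside 50.8% of all mRNAs called in either direction. Examples were the secreted antagonist Chrd (−1.26 ± 0.23), the decoy receptor Bambi (−0.79 ± 0.33) and the inhibitory SMAD Smad7 (0.98 ± 0.31), which also rose in B (1.28 ± 0.33). Of 6 target genes tested, 4 fell in BM at day 4, namely Hamp (−1.85 ± 0.18), Id2 (−1.21 ± 0.18), Atoh8 (−1.20 ± 0.27) and Hamp2 (−1.13 ± 0.19), and Id1 rose (1.05 ± 0.30). The list's median was −1.16, beside 0.01 over all mRNAs. Hamp and Hamp2 are hepatocyte genes, and the 7 hepatocyte markers summed to 71163 to 82201 CPM of RPFs in WT and 35071 to 41126 in BM livers at day 4. Their part in these values was not tested. In B, 1 of 7 fell at day 4, beside 12.5% of all mRNAs called, and 4 of 7 at day 10, beside 25.3%. The hepatocyte markers summed to 71755 to 90374 CPM in WT and 38839 to 41994 in B livers at day 10, and their part was not tested there either. Among the proteases that cut BMP precursors, Furin fell (−0.37 ± 0.08) and Pcsk6 rose (0.21 ± 0.08) in BM at day 4. Of 5 TGFβ ligands, receptors and SMADs tested, 1 rose and 2 fell, with Tgfbr2 at −0.46 ± 0.11, Smad2 at 0.31 ± 0.13 and Tgfbr1 at −0.30 ± 0.12. With all mice, no gene of these lists passed the TE test in B or BM against WT at either day, where 0.0471% to 2.14% of all mRNAs passed, so that none is near the background. With the replicate block, which called 29 mRNAs in B and 661 in BM at day 4 and 279 and 539 at day 10, Hamp2 was lower in TE in B at day 4, and Smad7 and Id1 were higher in BM at day 4. At day 10 with the block, Hamp was lower and Furin higher in B, and Gdf2 higher in BM.

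Of the fibrillar and FACIT collagens tested, none rose in BM livers at day 4, where 50.8% of all mRNAs passed in either direction. Of 7 fibrillar collagens tested, 4 fell in RPFs, with Col27a1 (−2.07 ± 0.32), Col5a3 (−1.24 ± 0.34), Col1a2 (−0.71 ± 0.18) and Col5a1 (−0.41 ± 0.16). The related FACIT collagen Col14a1 (−0.58 ± 0.08) fell as well, as did Dcn (−0.74 ± 0.09), a proteoglycan that binds collagen fibrils. Of 14 genes for collagen modification and assembly, 9 fell and none rose, such as P4ha1 (−1.07 ± 0.20), a prolyl hydroxylase subunit, the chaperone Serpinh1 (−0.86 ± 0.16), the crosslinking enzyme Lox (−0.83 ± 0.37) and the procollagen protease Adamts2 (−0.64 ± 0.19). The medians of the fibrillar and modification lists were −0.52 and −0.50, beside 0.01 over all mRNAs. The fibrillar share, 4 of 7, was near the background. The stellate cell markers summed to 778 to 853 CPM of RPFs in WT and 506 to 636 in BM livers at day 4, and their part in these values was not tested. In B at day 4, 3 of 7 fibrillar collagens and 1 of 13 modification genes fell, beside 12.5% of all mRNAs called. Loxl2, another crosslinking enzyme, was, with all mice, the gene of the collagen lists past the TE threshold (−0.93 ± 0.23 in BM at day 4, edgeR adjusted p = 0.0505). With the replicate block Dcn passed as higher as well, and at day 10 Dcn and Col5a2 were higher and Serpinh1 lower in TE in BM. The block called 661 of 10512 mRNAs in BM at day 4 and 539 of 10469 at day 10.

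Genes that act with or beside Atp11a are read beside the 50.8% of all mRNAs called in BM at day 4. Of 7 other P4-ATPases, 3 rose and 1 fell in RPFs in BM at day 4, with Atp8b4 (0.85 ± 0.36), Atp8b5 (0.65 ± 0.17), Atp11b (0.22 ± 0.09) and Atp8b1, a flippase of the bile canaliculus (−0.52 ± 0.08). None passed in B at that day, where 12.5% of all mRNAs were called. The subunits Tmem30a (−0.67 ± 0.08) and Tmem30b (−0.62 ± 0.12) both fell in BM. Of 7 scramblases, which move lipids in both directions, 1 rose (Xkr8, 0.58 ± 0.21) and 4 fell, such as Plscr4 (−0.85 ± 0.31), Plscr1 (−0.72 ± 0.12) and Plscr2 (−0.42 ± 0.14). With all mice, none of these genes passed the TE test in B or BM against WT at either day. With the replicate block Atp8b4 passed as higher in BM at day 10, where the block called 539 of 10469 mRNAs.

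Among genes near Greb1 in function, 2 of 5 steroid receptors tested rose and 1 fell in RPFs in B at day 4, beside 12.5% of all mRNAs called, and 2 rose and 2 fell in BM, beside 50.8%. The oestrogen receptor Esr1 fell in RPFs in B and BM at day 4 (−0.83 ± 0.11 and −1.06 ± 0.15). Nr3c2, the mineralocorticoid receptor, rose (0.68 ± 0.14 and 0.57 ± 0.16), and the glucocorticoid receptor Nr3c1 fell in BM (−0.33 ± 0.07). Of 8 coregulators, 3 rose in BM at day 4, such as Ncor1 (0.45 ± 0.10) and Crebbp (0.23 ± 0.10), and none of 8 passed in B. Greb1l, the paralogue of Greb1, had too few footprints to be tested, and its RNA fell in BM at day 4 (−0.82 ± 0.34).

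In BM livers at day 10 the counts of these lists depended on BM mouse 1. Of the genes on the lists, 23 rose and 22 fell in RPFs with all mice, and 31 rose and 52 fell without it. Over all mRNAs, 2767 rose and 2541 fell of 11369 with it, and 3776 rose and 3843 fell of 11526 without it. Among BMP receptors 2 rose and none fell with it, and 2 rose and 5 fell without it. Of the 7 P4-ATPases 2 fell with it, and 1 rose and 6 fell without it. Of the 14 collagen modification genes 1 rose and 6 fell with it, and 2 rose and 9 fell without it. Fibrillar collagens gave 3 that rose and 2 that fell in both cases. In TE, none of 111 tested list genes passed with all mice, and 8 of 112 rose and 20 fell without mouse 1, a count made after the data had been seen. Over all mRNAs, 1131 rose and 1155 fell in TE of 10616 without it.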

How the data were processed

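Each of 24 livers gave a library of RPFs and one of cytoplasmic RNA. Per the methods of the study, the authors trimmed RPF reads with Cutadapt 1.18, discarded reads of rRNA and tRNA, mapped the others to the most abundant transcript of each gene (GENCODE vM27, GRCm39), removed duplicates by UMI and kept 30 to 38 nt fragments. They deposited counts over the coding sequence without the first 20 and last 10 codons. For rRNA-depleted RNA they deposited expected counts of each isoform (Bowtie2 2.3.5.1, RSEM 1.3.3), which were summed per gene and rounded, beside TPM values, used here only to describe isoforms. Transcripts missing from an RPF library were taken as 0.

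TE, RPF and RNA differences were tested with edgeR 4.0.16 (quasi-likelihood, R 4.3.3) on the mice of the 2 groups compared, TE as the interaction of library type and group, with TMM factors, filterByExpr and Benjamini-Hochberg adjustment over all genes at a threshold of 0.1. CPM used TMM-scaled library sizes. The method was tested on simulated data. Alternatives were DESeq2 1.42.0, its size factors, no filter, RNA of the counted transcript, a fit over all 24 mice, a pseudocount of 2, a replicate block and leaving out each mouse. RPF and RNA deviations of the same mouse from their group means correlated at 0.162 to 0.611 (median 0.389, 24 mice), so that the libraries of a mouse are paired by animal.

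The genes and lists were chosen with earlier results of these data known. Of each list, up to 4 members past the threshold with the largest RPF change in BM against WT at day 4 were named, apart from some that are not reported here. Similar genes were the 3 with the smallest root mean square difference of centred log2 values over 24 mice, among genes with a mean count of at least 10 in both library types. Values of other comparisons, the TE calls Loxl2 and Cyp1a2, and Id1 and Greb1l were chosen after their values were seen. Nothing states whether mice of a group were processed together, and RPF and RNA p-values measure the spread between 3 mice. The main TE fit takes the RPF and RNA libraries of a mouse as separate. Its SE and p therefore rest on the spread between libraries and leave out the pairing by animal. Counts limit precision where they are few, as for Greb1, and floors of 3 counts cover counting error only.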

Additional observations from a re-analysis of the deposited data

Results flagged for a closer look

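The log2 difference of Atp11a RNA between M and WT was higher at day 10 than at day 4 by 2.77 ± 0.43 (SE), in a fit over the 12 WT and M mice that was added after the values had been seen. For Atp11a TE the same difference was −2.30 ± 0.54 without pairing and −2.30 ± 0.32 with the replicate block. Both are listed because the RNA value and the paired TE value passed in these fits, where 137 of 11505 RNAs and 1 mRNA were called. The gene was chosen with these WT mice and the comparison was made because of the pattern, so the fits give no independent support, and no p is given.

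In the other cases the values had chosen the genes, and the difference between the days was not tested. The log2 RPF change of Col12a1 from WT to BM was 1.84 at day 4 and −0.67 at day 10. The log2 TE change of Atp11a from WT to B was 1.69 at day 4 and −1.06 at day 10, and that of its RNA was −1.63 and 1.57.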

How the results depend on the processing

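In comparisons without B or BM mice, 116 of 132 alternative values of the members' TE changes kept their direction and side of the threshold, 10 turned sign and 6 newly passed, and 230 of 270 RPF and RNA values kept both. Those with WT mice share values with the choice of the genes, so their side of the threshold is only a description. In comparisons with B or BM mice, which had no test, 7 of 432 TE values and 42 of 760 RPF and RNA values turned sign, all from changes of at most 0.33 log2 units. The number of mRNAs called for TE depended on the method. DESeq2 called 29 in B and 90 in BM against WT at day 10, 3 in M against WT at day 10, 70 between the days in WT and 2 in M. One fit over all 24 mice called 1 in B, 144 in BM and 11 in M at day 4, 30 in B and 775 in BM at day 10, and 0 between the days in WT. The cause was not tested.

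With the replicate block that pairs both libraries of a mouse, 29, 661 and 280 mRNAs were called in B, BM and M at day 4, 279, 539 and 36 at day 10, 157 between the days in WT and 5 in M. With the block, the TE changes of Atp11a were 0.90 and −1.40 in M against WT at days 4 and 10 and 1.18 between the days in WT. These 3 values share WT mice with the choice of the genes and are a description. Between the days in M, the TE change of Atp11a was −1.09 and newly passed. The block changed no other TE call of a member between the days in M. The replicate numbers did not pair mice across groups (correlations of −0.210 to 0.229 for RPFs and −0.199 to 0.202 for RNA over 84 pairs each), and with the number as a block Greb1 RNA between the days in M turned to 0.0026.

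Leaving out each mouse gave TE calls of 0 to 7 in B, 100 to 209 in BM and 43 to 101 in M at day 4. At day 10 it gave 1 to 20 in B, 6 to 2286 in BM (the latter without mouse 1) and 0 to 134 in M, and 0 to 52 between the days in WT. List genes with lower RPFs numbered 5 to 11 in B at day 4 (11 without WT mouse 2) and 16 to 52 in BM at day 10. TE changes ranged from 0.086 to 0.56 (Atp11a, BM at day 10), 0.27 to 0.99 (Col12a1, B at day 10), −1.42 to −0.54 (Col12a1, BM at day 10), 0.69 to 1.12 (Atp11a, M at day 4), −1.73 to −1.24 (Atp11a, M at day 10), −0.67 to 0.13 (Bmp7, M at day 10), −0.58 to 0.0020 (Col12a1, M at day 4), −0.082 to 0.45 (Col12a1, days in WT) and −0.36 to 0.20 (Col12a1, days in M). RPF changes ranged from −0.57 to 0.15 (Bmp7, M at day 10), −0.27 to 0.062 (Col12a1, days in WT), −0.15 to 0.17 (Col12a1, days in M) and −0.075 to 0.22 (Atp11a, days in M). RNA changes ranged from −0.15 to 0.13 (Bmp7, M at day 10), −0.11 to 0.20 (Col12a1, M at day 10), −0.076 to 0.25 (Col12a1, days in M), −0.11 to 0.21 (Greb1, days in M) and −0.26 to 0.10 (Greb1, days in WT). The RPF change of Col12a1 between the days in M turned to −3.9e-05 with DESeq2 and −0.00063 with its size factors. Few Greb1 footprints limit its values, and a pseudocount of 2 moved its mean log2 TE in every group but B and BM at day 10.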
